A study of Drosophila melanogaster with 24 samples.

Results

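Males of the lines selected for high aggression (H1 and H2) were compared with males of the lines selected for low aggression (L1 and L2). The comparison holds 8 of the 24 arrays of the series, 4 of H males and 4 of L males with 2 per line, chosen by the sex and the line given in the sample labels. All 6 lines of *Drosophila melanogaster*, including the unselected control lines C1 and C2, descend from a single wild-derived base population that had been split into 2 replicate cultures. Lines that share a number come from the same culture. In each generation 50 males of each H and L line were scored for aggression and the 20 highest or lowest became parents, so that selection acted on males and females were not chosen. Each sample was a pool of 12 whole virgin males, 3 to 7 days old, without food for 90 min, collected at generation 25 by the article's methods and at generation 28 by the series' design text. A line is a closed population, so its 2 arrays share their founders and their history, and each selection group is represented by 2 such populations. Nothing in the sources used here tells if the pools of one line were reared apart. A p-value over arrays therefore measures only how these samples scatter, which may be technical in part.

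Male flies fight over food and mates, and octopamine, serotonin, dopamine, several neuropeptides and the sex-specific products of fruitless are known to shape this behavior. The abundance of *Cyp6a20*, a cytochrome P450 gene, is known to change with social experience and to affect fighting. Transcripts of a whole fly come mainly from its large tissues, among them flight muscle, fat body, gut and, in males, testis and accessory gland, so that transcripts made in a few neurons make up a small part of such a sample. A lower share of a cell type in the body and less RNA per cell cannot be told apart in these samples.

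The abundance of a transcript is given as Signal, a linear intensity per probe set, or as log2(Signal + 16). Differences are H minus L on this log2 scale, so that a difference of 1 is 2-fold for a bright probe set and understates the change of a dim one. A gene was called when limma, fitted over all 24 arrays and all 11928 probe sets kept, gave an adjusted p (Benjamini-Hochberg) under 0.05. Its groups are said to lie apart when the 4 H male arrays and the 4 L male arrays did not overlap.

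The male arrays carried the transcripts of male tissue. Genes of yolk, vitelline membrane and chorion had a summed Signal of 1289 to 1454 in H males and 1330 to 1695 in L males, against 122296 to 203938 in females. Seminal fluid genes had 296558 to 338931 in H males and 288128 to 320224 in L males. The label of H2 male replicate 1 names both line numbers, and it was read as H2. After the mean of each probe set was subtracted, this array correlated across probe sets at 0.386 with the other H2 male array and at 0.0849 and -0.0697 with the H1 males. On the same scale the 2 arrays of a line correlated at 0.34 to 0.564, arrays of the other line of the same group at a median of -0.123 and arrays of the other group at a median of -0.142. The median Signal was lower on every H male array (124.8 to 128.5) than on every L male array (129.1 to 143.4), although the trimmed mean was 497.6 to 499.8 on all 8.

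H and L males differed in many transcripts, mostly by small amounts. Of 9913 genes tested, 455 (4.59%) were called, 173 (1.75%) higher in H and 282 (2.84%) lower in H. By probe set 555 of 11928 (4.65%) were called, 210 (1.76%) upward and 345 (2.89%) downward, and 283 of these (2.37%) had groups apart. An unadjusted p under 0.05 was found for 1612 genes (16.3%). The groups lay apart for 236 of the called genes (2.38% of those tested), 97 higher in H (0.979%) and 139 lower in H (1.4%). The other 219 called genes overlapped between groups. Among the 236 genes the median absolute difference was 0.61, or 1.53-fold, and 39 (16.5%) reached 2-fold, whereas the median absolute difference of all genes was 0.12. With male arrays scaled to one median, which moved the median gene by 0.081, 309 probe sets were called and 57.6% of them were higher in H, against 37.8% with the Signals as deposited, so that the balance of higher and lower calls depended on the scaling. For called probe sets with groups apart the share higher in H was 41% as deposited, 50.2% after quantile normalization and 67.8% after scaling to one median.

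The largest differences with groups apart that were higher in H came from a noncoding RNA, from 3 enzymes of detoxification and from genes of less known function. CR44101, whose symbol marks a noncoding transcript, had Signals of 269 and 257.9 in H1, 393.1 and 236.7 in H2, 81.1 and 30.6 in L1, and 25.7 and 36 in L2. The lowest H array was thus 236.7 and the highest L array 81.1, while the C males, at 28.3 to 61.8, lay in the range of the L males. The difference was 2.42 (standard error 0.207, adjusted p = 1.18e-05 in limma). CG31810 gave the same picture, with 1301 and 1423 in H1, 1688 and 1448 in H2, 535.5 and 483.9 in L1, 614 and 555 in L2 and 459.2 to 662.3 in the C males, and its difference was 1.39 (standard error 0.134). Here too both H lines stood above all other lines, and H1 minus L1 (1.39) and H2 minus L2 (1.4) were nearly equal. *GILT2*, which encodes a lysosomal thiol reductase, had 4309 and 4266 in H1, 3620 and 4338 in H2, 1637 and 1804 in L1, and 1884 and 1681 in L2, a difference of 1.23 (standard error 0.145, adjusted p = 0.000123). Its C males, at 1432 to 2327, were again below every H male.

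CG6283, CG3301, CG43064 and CG15369 were also among the 10 largest increases, but with unequal lines. CG6283 had 1731 to 2071 in the 4 H arrays, 1092 and 1475 in L1, and 274.9 and 420.6 in L2. The call of CG6283 ended without line L2 (difference 0.59 instead of 1.51), as did that of CG3301 (0.55 instead of 1.22). CG15369 had 119.2 and 320.2 in H1, 260.1 and 472.8 in H2, 108.9 and 111.2 in L1 and 60.2 and 72.4 in L2, so that the lowest H array was just above the highest L array, and its call ended without H2 (1.07) and without L2 (1.15). CG43064 was dim, at 108.2 to 205.8 in H and 18.1 to 98.8 in L males, and its call ended without H2, without L2 and without 2 of the male arrays, each left out alone.

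**Figure D1:**
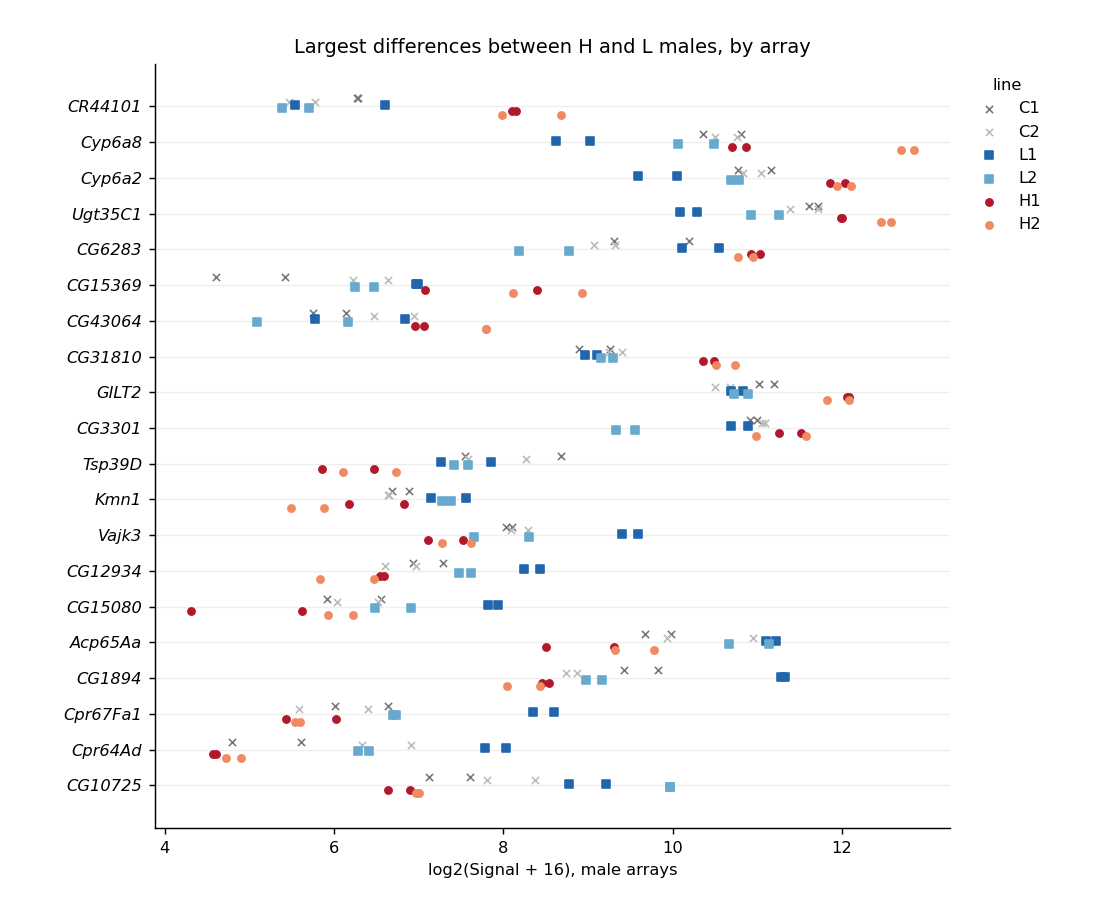
Transcript abundance on the 12 male arrays, log2(Signal + 16), of the 10 genes with the largest differences in each direction among those called with the H and L arrays apart. Each point is 1 array, circles are H lines, squares are L lines and crosses are C lines; the H and L points of a gene do not overlap, with a wide gap for CR44101 and CG10725 and a narrow one for CG15369.

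Among the transcripts lower in H, CG10725 had the largest difference with groups apart. Its Signals were 83.3 and 103.2 in H1 and 108.9 and 112 in H2, against 421.1 and 576 in L1 and 989.7 and 982 in L2. The highest H array was thus 112 and the lowest L array 421.1, and the C males (123.1 to 315.7) fell in the gap. The difference was -2.61 (standard error 0.144, adjusted p = 9.68e-08), or 6.09-fold. Genes of the cuticle, the chitin and protein layer that covers the fly, made up 4 of the 10, namely *Cpr64Ad*, *Cpr67Fa1*, *Acp65Aa* and *Vajk3*. *Cpr64Ad* was close to the floor in the H males, at 7.8 and 8.4 in H1 and 13.8 and 10.5 in H2, and had 203.7 and 244.9 in L1 and 69.3 and 61.8 in L2 (difference -2.42, standard error 0.232). *Acp65Aa*, an adult cuticle protein gene, had 346 to 862 in H and 1609 to 2377 in L males, with L1 and L2 alike (difference -1.81). For *Cpr67Fa1* (-1.95) and *Vajk3* (-1.36) L1 stood well above L2, and the calls ended without L1, at -1.07 and -0.6. The remaining genes of this direction were CG1894 (-1.83), CG15080 (-1.77), CG12934 (-1.58), *Kmn1* (-1.24), which encodes a kinetochore protein, and the tetraspanin gene *Tsp39D* (-1.24). Without L1 the calls of CG1894 (-0.71), CG15080 (-1.17) and CG12934 (-1.18) ended, that of CG12934 also ended without H2, and that of *Tsp39D* ended with any 1 of the 4 lines left out.

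The line pairs 1 and 2, which share no array, were compared gene by gene. Both pairs took their error from the same fit, so their calls are not independent of each other. H1 and L1 males differed in 483 genes (4.87%), 182 (1.84%) higher and 301 (3.04%) lower in H1, and H2 and L2 males in 218 genes (2.2%), 110 (1.11%) higher and 108 (1.09%) lower in H2. By probe set the counts were 593 (4.97%) and 270 (2.26%), with 40 (0.335%) called in both pairs in the same direction. In both pairs 44 genes were called, which is 9.11% of the first list and 20.2% of the second, and 31 of them (0.313% of genes) had the same direction and 13 (0.131%) the opposite. The 31 genes are 6.42% of the first list and 14.2% of the second, 18 upward in H (0.182%) and 13 downward (0.131%), and 29 had groups apart. Pairing the lines the other way, H1 with L2 and H2 with L1, gave 30 genes (0.303%) of the same and 23 (0.232%) of the opposite direction. Across all genes, which are not independent replicates, the differences of the 2 pairs correlated at r = 0.0935 and had the same sign in 52.7% of genes, against 0.00158 and 47.9% for the crossed pairs. The difference between the line pairs was itself called in 229 genes (2.31%). Lines of one group differed as well: L2 and L1 males differed in 631 genes (6.37%) and H2 and H1 males in 139 (1.4%).

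Genes called in both pairs in the same direction included 4 detoxification genes higher in H, *Cyp6a2*, *Cyp6a8*, *Cyp6w1* and *Ugt35C1*. Others that were higher were *GILT2*, CR44101, CG31810, the lipid droplet gene *Lsd-2* and *Got2*, which encodes a mitochondrial aspartate aminotransferase (0.73 in pair 1, 0.55 in pair 2). Lower in both were CG10725, *Cpr64Ad*, *Kmn1*, the glutathione S-transferase gene *GstE1*, *stau*, which encodes the RNA-binding protein Staufen, the clock gene *cwo*, the receptor phosphatase gene *Ptp99A* (-0.53 and -0.59) and CG5770. CG5770 was called in both pairs although the groups overlapped, since its line means were 5.04 in H1, 7.33 in H2, 7.18 in L1 and 9.6 in L2, with differences of -2.14 and -2.27. In the opposite group, *Prx6c*, a peroxiredoxin gene, had -2.06 in pair 1 and 3.66 in pair 2, the cuticle gene *Cpr72Ec* -0.98 and 2.45, and the neuropeptide-like gene *Nplp4* -1.77 and 1.68. In all 3 of these L1 was the highest and L2 the lowest of the 4 selected lines.

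**Figure D2:**
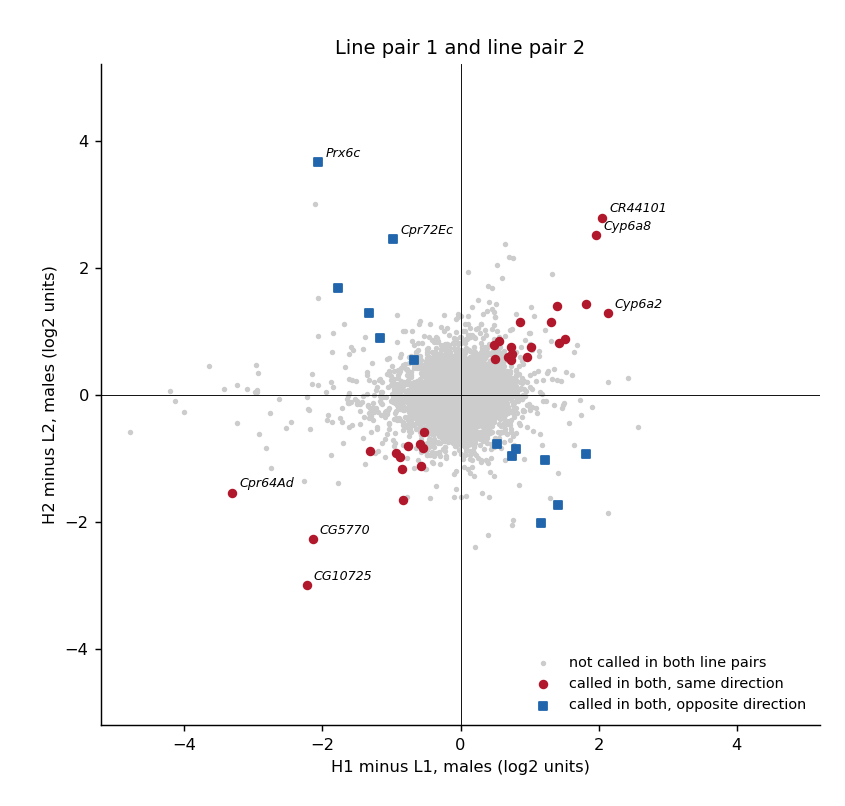
Difference between H1 and L1 males (horizontal axis) and between H2 and L2 males (vertical axis), in log2 units, for the 9913 genes tested, 1 point per gene. Circles mark the 31 genes called in both line pairs in the same direction and squares the 13 called in opposite directions; the point farthest to the left is CG4962, at -4.78 and -0.58.

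Of the genes called between the groups but overlapping, most had a single line that differed from the others. In 117 of these 219 genes L1 alone was set off from the 3 other lines by a gap wider than the range of those 3 lines, against 23 for H1, 31 for H2 and 23 for L2, and in 25 no line was. Among the 236 genes with groups apart L1 was set off in this way in 40. A called difference between overlapping groups itself favors a single line set off, and the share over all genes was not counted. CG4962 had the largest difference of any called gene (-2.68), and its L1 mean of 11.78 stood far above 7.56 in L2, 7 in H1 and 6.98 in H2. The chitin synthase gene *kkv* had 9.78 in L1 and 6.36 to 6.78 in the 3 others, *Cpr72Eb* 9.7 against 5.56 to 6.16, and *frm* 10.19 against 5.99 to 6.29. The second line pair gave -0.58 for CG4962, -0.1 for *Cpr72Eb*, 0.06 for *frm* and 0.1 for *kkv*, none of them called. These genes were chosen after their values were seen. With line L1 left out 260 probe sets were called, 53.1% of them higher in H, and with L2 left out 843 were called.

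Detoxification genes, whose products oxidize, conjugate and export foreign compounds, were called more often higher than lower in H. Of 75 cytochrome P450 genes 10 were called higher in H and 2 lower (16%, against 4.59% of all genes), with a median difference of 0.19 against -0.01 for all genes, and 54 had a positive difference. Of 26 UDP-glycosyltransferase genes 6 were higher and 1 lower, of 33 glutathione S-transferase genes 4 and 2, and of 12 carboxylesterase genes 3 and 0. With 1 male array left out at a time 1 to 4 glutathione S-transferase genes were higher and 1 to 2 lower, and 1 to 3 esterase genes were higher, none of them without line L1. None of 8 regulators of the xenobiotic response was called, with values of -0.42 to 0.01. *Cyp6a2*, known for insecticide metabolism, had 4178 and 3704 in H1, 4411 and 3933 in H2, 755.5 and 1042 in L1 and 1753 and 1640 in L2. The lowest H array was 3704 and the highest L array 1753, and the C males, at 1729 to 2281, reached from the level of L2 upward but stayed below every H male. The difference was 1.71 (standard error 0.153, adjusted p = 1.47e-05). For *Cyp6a8*, another P450 gene, the Signals were 1653 and 1858 in H1, 6644 and 7382 in H2, 378.4 and 505.8 in L1 and 1416 and 1051 in L2. H2 was far above all other lines and H1 only a little above L2, so that the group difference of 2.23 was 1.24 without line H2, while each H line exceeded the L line of its own number by a similar amount (1.96 and 2.51). *Cyp6w1* had 7912 and 7990 in H1, 11911 and 12016 in H2, 2639 and 3313 in L1, and 7435 and 6240 in L2, a difference of 1.12 that fell to 0.52 and lost its call without L1. *Cyp6d5* had 12174 to 13238 in H and 7949 to 10244 in L males, 1.4-fold apart, and its call also ended without L1.

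The transferases showed the same range of patterns. *Ugt35C1* had 4091 and 4035 in H1, 5644 and 6108 in H2, 1229 and 1074 in L1 and 2432 and 1933 in L2 (difference 1.62, standard error 0.133, adjusted p = 8.05e-06), and the C males at 2659 to 3364 lay between the groups. *Ugt37B1* had 411.5 to 594.8 in H and 249.8 to 303 in L males, and *Ugt37A2* 773 to 1051 and 437.1 to 552.4, with lower values still in the C males (248.1 to 375.8) and an adjusted p of 0.0513 without L1. *GstE5* was higher in H (0.79) and *GstE1* lower (-1, standard error 0.126, adjusted p = 0.000219). *GstE1* had 1630 and 1980 in H1, 1378 and 1449 in H2, 2812 and 3735 in L1 and 2820 and 3574 in L2, with groups well apart and both L lines at the same level. Members of such families share sequence, and signals of close relatives may include each other. *Cyp12d1-d*, which has a near-identical copy, was called lower in H (-1.24), and among the selected lines L1 stood alone, at 11.58 against 8.62 to 9.11 in the 3 others, while C1 was higher still at 12.57. *Cyp6a17*, the other P450 gene called lower (-1.1), was low in H2 (8.73) and not in H1 (10.78), with 10.57 in L1 and 11.13 in L2. *Cyp6a20* was not called (difference 0.28, standard error 0.131, adjusted p = 0.316), with line means of 10.92, 11.3, 10.72 and 10.94 in H1, H2, L1 and L2. Without line L1, 6 P450 genes were called higher and 1 lower, and 2 UDP-glycosyltransferase genes were called higher and 1 lower.

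**Figure D3:**
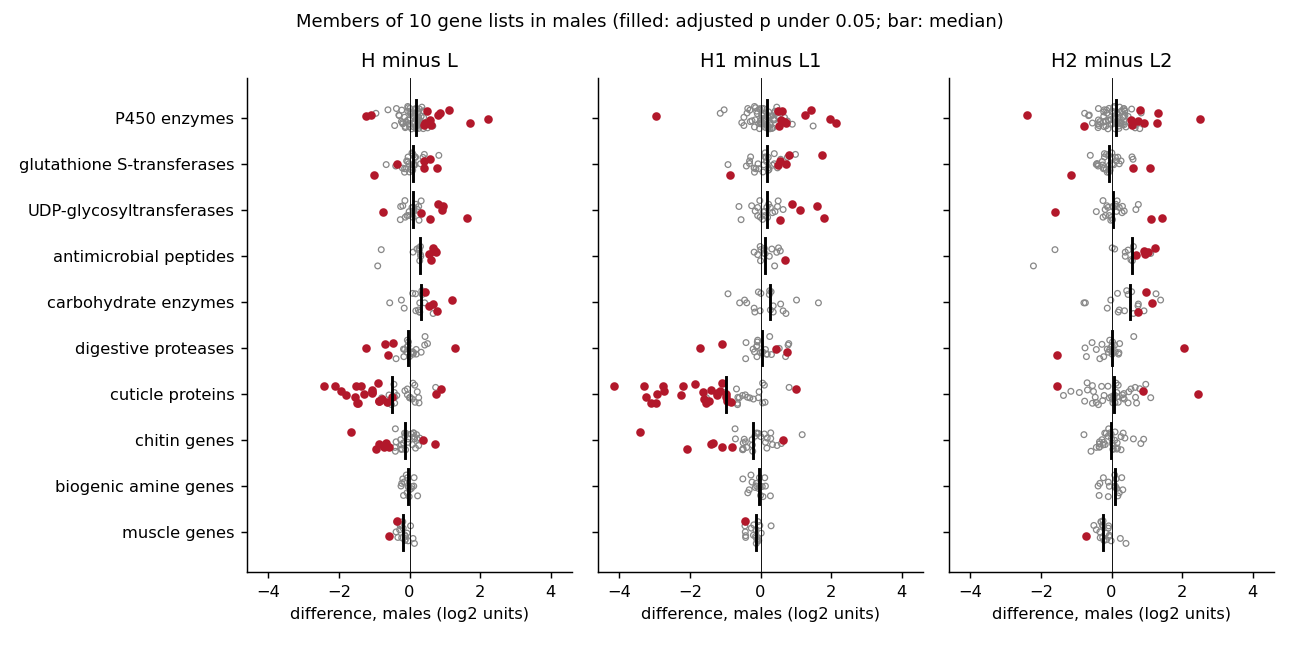
Differences in males, in log2 units, for the tested members of 10 gene lists, in the comparison of groups (left) and in line pair 1 (middle) and line pair 2 (right). Each point is 1 gene, filled where the adjusted p is under 0.05, with random vertical scatter, and the black bar is the median of the list; the cuticle list has its median at -0.5 on the left, -0.99 in the middle and 0.07 on the right.

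The median cuticle gene was lower in H than in L males in pair 1 and not in pair 2, and L1 had the highest level of these genes. Of 134 cuticle protein genes on the array 44 passed the filter on low values, and 19 of these were called lower in H and 2 higher (47.7%, against 4.59% of all genes, 2.84% lower and 1.75% higher), with a median of -0.5. In pair 1 the median was -0.99 and 25 genes were called, and in pair 2 it was 0.07 and 3 were called. Relative to the mean of the 4 selected lines, the median cuticle gene stood at 0.7 in L1, at -0.18 in L2, at -0.42 in H1 and at -0.14 in H2, and the C lines were at -0.2 and -0.13. Without L1 the counts fell to 4 lower and 2 higher and the median to -0.13. For 10 of the 19 genes lower in H the groups lay apart, a share near that of all genes called lower (139 of 282). Among the 10, *Cpr100A* had 508.2 to 783.8 in H, 1489 and 1675 in L1 and 1166 and 1180 in L2 (difference -1.05, standard error 0.128). Of the 10, 7 had a difference of -0.68 or lower in both pairs, a limit set after the values were seen, namely *Cpr100A* (-1.41 and -0.68), *Acp65Aa* (-2.26 and -1.36), *Cpr64Ad* (-3.31 and -1.54), *Cpr67Fa1* (-2.74 and -1.15), *Cpr92F* (-1.1 and -0.69), *Cpr97Ea* (-0.95 and -0.76) and *Cpr97Eb* (-1.24 and -0.91). Only *Cpr64Ad* was called in both pairs, and the 6 others passed the test in pair 1 and not in pair 2. *Cpr67B* ran the other way, with 1 in pair 1 and 0.8 in pair 2.

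Of 34 tested genes listed as binding, making or modifying chitin 6 were called lower in H, against 2.84% of all genes, and 2 higher, against 1.75%. The medians were -0.22 in pair 1 and 0 in pair 2, and without L1 none of the list was called lower. The list was made by gene symbol and may miss genes of this kind, and CG10725 is not on it. Besides *kkv*, the genes called lower were the chitinase genes *Cht6* (-0.66) and *Cht7* (-0.87), the deacetylase genes *serp* (-0.72) and *Cda5* (-0.96) and *Peritrophin-A* (-0.57). Only *serp* had groups apart, with 363.1 to 515 in H and 635.3 to 827.3 in L males, and its call ended without H1 or without L1. *y*, whose product is needed for black pigment, was lower in H (-1.04), at 78.6 to 240.2 against 267.3 to 453.8, but its call ended with H1 or L2 left out.

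**Figure D4:**
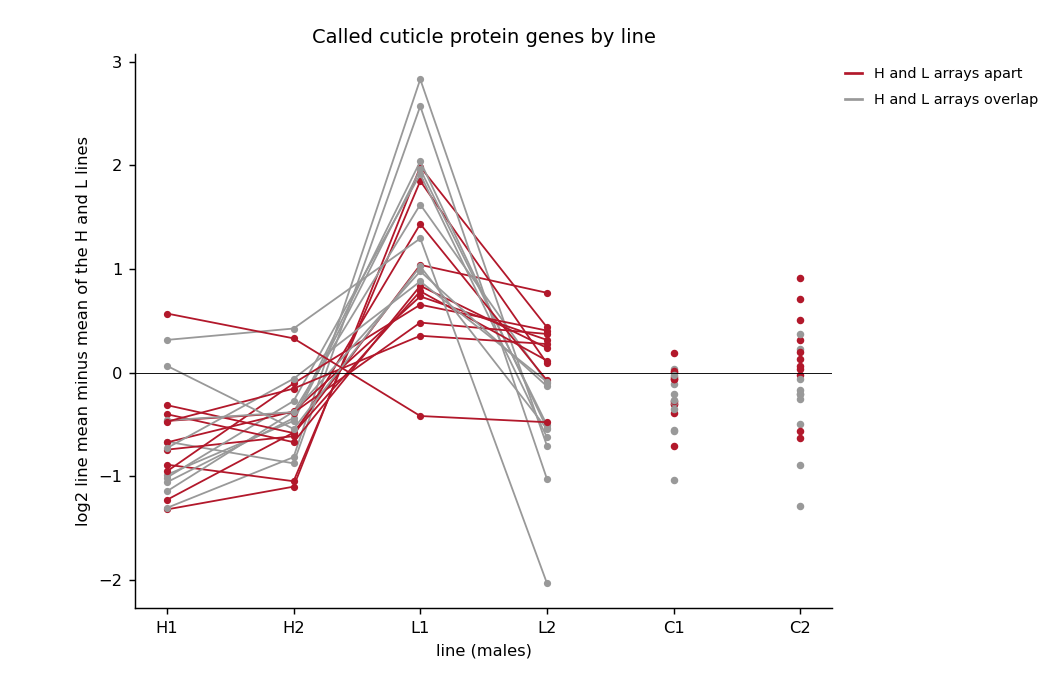
Line means of the 21 called cuticle protein genes in males, as log2(Signal + 16) minus the mean of H1, H2, L1 and L2 for that gene, with 1 connected set of points per gene and unconnected points for the C lines. Genes whose H and L arrays lay apart are in red and the others in grey; most genes peak in L1, and *Cpr67B* is the red line that is lower in L1 and L2 than in H1 and H2.

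Immune and gut genes changed in a few members each. Of 16 antimicrobial peptide genes 5 were called higher in H (31.2%, against 1.75% of all genes) and none lower, with a median of 0.12 in pair 1 and 0.57 in pair 2. Only *Drsl4*, of the Drosomycin family, had groups apart, with 9927 and 11824 in H1, 15042 and 16418 in H2, 6390 and 8450 in L1 and 7847 and 8899 in L2 (difference 0.73, standard error 0.125, adjusted p = 0.00289). *Drsl5* (0.74) and the peptide genes *BomS5* (0.67), *BomT2* (0.54) and *BomT3* (0.62) overlapped between groups. In females the median of the list was -0.29, and *BomS5* had -0.58 there (adjusted p of the sex difference 0.048). The call of *Drsl4* ended without H2 (0.47). The count of 5 fell to 1 without line H2, to 2 without line L2, to 3 without line H1 or its replicate 1 alone, and to 2 without replicate 2 of H1, replicate 2 of H2, or replicate 1 of L1 or of L2. Among 28 genes of immune recognition and signalling 5 were called (17.9%, against 4.59% of all genes). *PGRP-SC2*, whose product cleaves peptidoglycan, was higher in H (3126 to 4645 against 1602 to 2384, difference 0.91), as was *PGRP-LF* (0.57), an inhibitor of the Imd pathway. *Tl*, *pll* and *Fadd*, components of Toll and Imd signalling, were lower, with differences of -0.32, -0.44 and -0.4 and groups apart, but the call of *Fadd* ended under 15 of 25 alternatives. Those of *PGRP-LF* and *pll* ended without H1 and without H2, respectively. Of 25 digestive serine protease genes 4 were lower and 1 higher (20% called, against 4.59% of all genes), among them *Jon44E*, with 504.4 and 552.6 in H1, 893.3 and 831.7 in H2, 1595 and 1913 in L1 and 1774 and 1210 in L2 (difference -1.23, standard error 0.142). The C males had more still, at 2195 to 3516. With 1 male array left out at a time 1 to 3 genes of the protease list and 1 to 2 of the immune signalling list were called lower. *Jon65Aii* was higher (1.29), with an L2 mean of 7.61 against 9.66 to 11 in the other selected lines.

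Of 20 genes for carbohydrate enzymes of the gut and lysosome 5 were called higher in H (25%, against 1.75% of all genes) and none lower, and the median was 0.32. They were the maltase genes *Mal-A2* (0.43) and *Mal-A3* (0.66) and *LManIII* (1.2), *LManV* (0.55) and *LManVI* (0.78), which encode lysosomal alpha-mannosidases and form the only run of 3 or more adjacent called genes of one direction. *LManVI* had 1208 to 1425 in H and 564.6 to 866.7 in L males. The count of 5 fell to 0 without line H2, or without replicate 2 of H1, of H2 or of L2, to 1 without line L1, or without replicate 1 of H1 or of L1, and to 2 without replicate 2 of L1. Among 26 genes of insulin signalling, starvation and lipid storage, *Lsd-2*, whose product coats lipid droplets, was higher in H with 3685 to 4341 against 1859 and 2264 in L1 and 2945 and 2604 in L2 (difference 0.78, standard error 0.0878, adjusted p = 9.93e-05). The C males, at 3517 to 4299, were at the level of the H males. *daw*, an activin-like ligand, was lower (-0.45), and its call ended without H1. The sterol-binding gene *Npc2f* was higher in H (1828 to 2106 against 1016 to 1338), and so was the metallothionein gene *MtnC* (3864 to 4532 against 2074 to 3164), whose call ended without H2 or without L2.

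Lists of genes known from behavior held 0 to 2 called genes each, where 4.59% of all genes were called. None of 17 genes of biogenic amine synthesis, transport and reception was called, with differences from -0.24 to 0.23. Nor was any of 15 genes known from mutants to affect aggression or sexual behavior, with -0.33 to 0.28. At the share of all genes, lists this short can hold no call. *fru* had line means of 7.98, 7.69, 7.76 and 7.62 in H1, H2, L1 and L2 (difference 0.14, standard error 0.126), the dopa decarboxylase gene *Ddc* 9.49, 9.61, 9.35 and 9.5 (0.12), and *Tbh*, needed for octopamine synthesis, 6.24, 6.3, 6.36 and 6.63 (-0.22). The median standard error of a difference was 0.13, and these values do not show that the lines are alike. A list of 12 genes holds only a part of the mutants that the study tested for aggression, and leaves out *tramtrack* and *frizzled* among others. The study chose its candidates on these samples, so the list is no independent evidence. Of these 12 genes 2 were called (16.7%, against 4.59% of all genes), CG30015 (-0.39, 1183 to 1299 in H and 1320 to 1945 in L males) and *kis*, a chromatin remodelling gene (-0.47). The call of CG30015 ended under 8 of 25 alternatives, among them H1, H2 or L1 left out, with -0.16 without L1. *kis* had 1248 and 1068 in L1 and 539.3 to 635.1 in all H2, H1 and L2 males, and its difference was -0.01 without L1. Of 15 clock genes 2 were called (13.3%, against 4.59% of all genes). *cwo*, a transcriptional repressor in the clock, was lower in H, with 636.2 and 660.4 in H1, 537.9 and 543.2 in H2, 986.1 and 911.1 in L1 and 924.8 and 1028 in L2 (difference -0.68, standard error 0.104, adjusted p = 0.00113). Its groups were apart, with both L lines at one level and the C males (762 to 985.2) above every H male. A further probe set of *cwo* was kept and was not called lower in H. The other called clock gene was *Pdp1* (-0.73), which overlapped.

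The following lists, of whole tissues or general functions, held 0 to 2 called genes each, where 4.59% of all genes were called. None of 43 seminal fluid genes, 43 testis genes, 35 cytoplasmic ribosomal protein genes, 71 respiratory chain genes, 33 neuronal genes and 17 phototransduction genes was called. Of 21 germline and oogenesis genes 2 were called (9.52%). The lists of 20 hemocyte, clotting and melanization genes (5%), 19 yolk, vitelline membrane and chorion genes (5.26%) and 16 heat shock and chaperone genes (6.25%) held 1 each. Of 21 muscle sarcomere genes 18 had negative differences, against 5219 of all 9913 genes, with a median of -0.19, and 2 were called (9.52%, against 4.59% of all genes), the flight muscle gene *fln* (8296 to 12156 in H and 12365 to 16620 in L males) and the tropomyosin gene *Tm2* (-0.34). After scaling to one median the muscle list had a median of -0.1 and neither was called. The summed Signal of the muscle genes was 175141 to 217353 in H and 213118 to 227510 in L males, and its part in other results was not tested.

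Control males did not sit on one side. Among the 97 called genes higher in H with groups apart, the C mean lay above the H mean in 8, between the groups and nearer H in 40, between and nearer L in 39, and below the L mean in 10. Among the 139 lower in H the C mean lay below H in 5, nearer H in 46, nearer L in 57 and above the L mean in 31. *stau*, with 283.7 to 343.2 in H, 492.3 to 703.6 in L and 616.6 to 751.4 in C males, and *Tsp39D*, with 41.9 to 89.9, 138 to 214.7 and 171.5 to 394.3, were low in the H males alone. CR44101, CG31810 and *Ugt37A2* were high in the H males alone. For *Cyp6a2*, *Ugt35C1* and CG10725 both C line means lay between those of the H and the L lines.

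Female arrays, which share no sample with the male arrays but come from the same lines, gave differences of the same direction for most of these genes. A difference particular to a line can recur in its females, so the sexes do not replicate the comparison of H with L lines. Both sexes also took their error from the same fit. H and L females differed in 568 genes (5.73%). Of the 236 genes called and apart in males, 216 (91.5%) had the same sign in females, against 59.2% of all genes, and 108 (45.8%) were also called in females in the same direction. Across all genes, which are not independent replicates, the male and female differences correlated at r = 0.399. CG10725 had -2.61 in males and -2.3 in females, CR44101 2.42 and 2.13, *Cyp6a8* 2.23 and 2.13 and CG31810 1.39 and 1.74. The difference between the sexes was itself called in 16 genes (0.161%; 18 probe sets, 0.151%), of which 3 are among the 236. Among the 236 genes CG15369 was the only one called in both sexes with opposite signs, at 1.46 in males and -1.71 in females (adjusted p of the sex difference 0.00275). Its line means in females were 4.59 in H1, 4.47 in H2, 6.68 in L1 and 5.8 in L2, where in males they were 7.74, 8.52, 6.98 and 6.36. The mean Signal of CG15369 was 7.25 in H females, near the floor, and 63.6 in L females, which limits the size of the female difference. *Cpr64Ad* had -2.42 in males and 0.05 in females (0.00729), and the female lines of one group differed, with 7.75 in L1 and 5.31 in L2 against 6.59 in H1 and 6.57 in H2. The calls of the sex difference of CG15369 (0.0669) and *Cpr64Ad* (0.239) ended in the model on the Signal. *Phs* had -0.83 in males and 0.01 in females (0.018), but the male call ended without L1 (-0.34), and the difference between the sexes lost its call without H2 male replicate 2, without L2 male replicate 1, without a filter and in the model on the Signal (0.41). *Acp65Aa* had -1.81 and -0.16, without a called difference between the sexes.

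**Figure D5:**
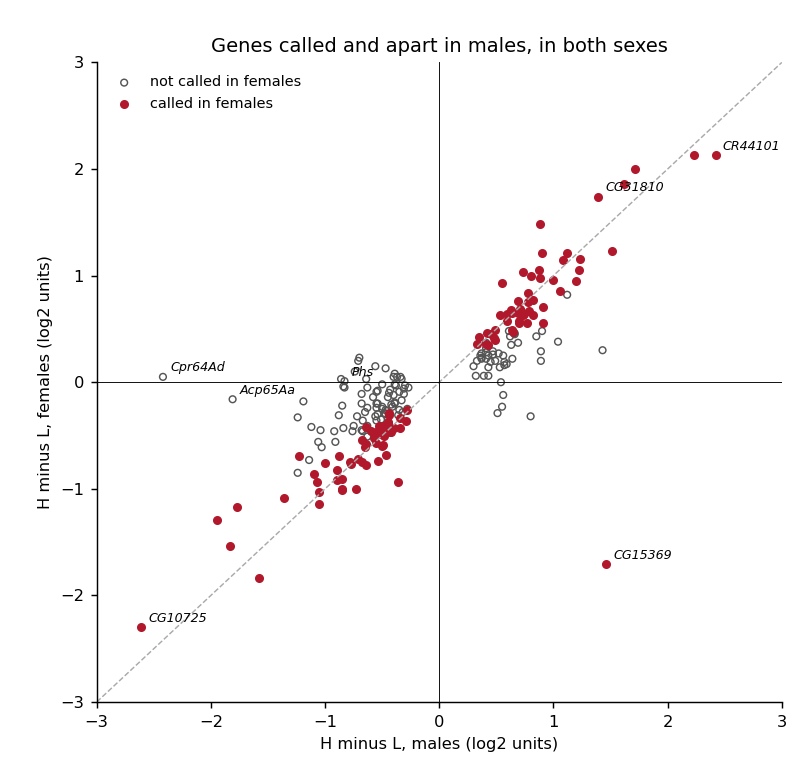
Difference between H and L males (horizontal axis) and H and L females (vertical axis), in log2 units, for the 236 genes called with groups apart in males, 1 point per gene, filled where also called in females, with a dashed line of equality. Of these 216 have the same sign in both sexes, and of the 236 CG15369 alone is called in both sexes with opposite signs.

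Called genes were found on every chromosome arm of the RefSeq annotation (Release 6 plus ISO1 MT assembly). On X 61 of 1567 genes were called (3.89%), on 2L 76 of 1876 (4.05%), on 2R 98 of 2033 (4.82%), on 3L 100 of 1898 (5.27%), on 3R 115 of 2440 (4.71%) and on 4 4 of 60 (6.67%), shares that were not tested against each other. Of 454 called genes on these arms, 39 (8.59%) had a neighbour among the tested genes that was called in the same direction. The share of all genes with such a neighbour was not counted, so no clustering is read from this value.

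With the line as the replicate no difference passed the test. In limma on the 6 male line means 0 probe sets had an adjusted p under 0.05, the lowest was 0.505, and 427 genes (4.31%) had an unadjusted p under 0.05, against 1612 (16.3%) with arrays as replicates. With 2 lines in each group an exact two-sided permutation test of a single gene cannot give a p below 0.333. A fit with line as a random block still used the 12 male arrays, with the same correlation within lines (0.364) for all genes. It is thus not a test with lines as the replicates. In this limma fit 8 genes were called, all with groups apart: *Cyp6a2* (adjusted p = 0.0244), *Ugt35C1* (0.033), CR44101 (0.0187), CG31810 (0.00926), *GILT2* (0.0185), CG6733 (0.0314), CG10725 (0.0127) and CG32006 (0.0187). Of the 56 named genes called between H and L males, 17 kept their call at an adjusted p under 0.05 in each of 25 refits over arrays, which leave out the random block, the fits on line means and the stricter threshold. Among them were the first 5 of these 8, CG10725, *Cyp6a8*, *GstE1*, *GstE5*, *Kmn1*, *Lsd-2*, *cwo* and *stau*.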

How the data were processed

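Transcript abundance was measured on 24 whole-genome arrays, 12 of males. The deposited values are Signals, an intensity per probe set on a linear scale that the authors computed with Microarray Suite (MAS5 in the submitters' processing notes) and scaled per array. Detection calls were not used here. In place of the filter of the methods on Absent calls, probe sets with a Signal of at least 50 on at least 12 of the 24 arrays were kept, 11928 of 18769. log2(Signal + 16) was fitted in limma 3.58.1 (R 4.3.3) with a separate mean for all 12 line-by-sex combinations, contrasts within males, and Benjamini-Hochberg adjustment over all probe sets kept. The methods used a factorial model of line and sex on the Signal, which was an alternative. The number of arrays limits the precision.

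Genes (9913) are represented by their brightest single-gene probe set. Of all probe sets 13646 name 1 gene, 402 several and 4721 none, and 13543 were matched to RefSeq by gene ID. The 236 genes called with groups apart had 11 further probe sets kept, among them those of *cwo* and CG3301. Of these 11, 7 had the same sign as the brightest and 0 were called in that direction. A call of a gene thus holds for its brightest probe set. Named were the 10 largest differences in each direction among genes called with groups apart, and up to 4 called members of each gene list with groups apart. Also named were some of the genes that the paper's text names, up to 5 genes in each direction called in both line pairs and up to 5 that differ between the sexes, lowest p first. Other genes were named after their values were seen. Members, lists and tests were chosen with earlier results of these data known, and 1 misassigned cuticle gene and 2 ambiguous symbols were corrected in the lists after the files had been read. Tests were checked on simulated data in which lines of one group did not differ, so the check cannot show how often differences between lines give calls. Alternatives were pseudocounts of 1 and 64, other filters, normalizations, models and thresholds, exchanged labels, a replicate block, line as a random block, and leaving out arrays and lines. Figures were drawn with matplotlib 3.10.9.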

Additional observations from a re-analysis of the deposited data

Results flagged for a closer look

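In 8 of 150 groups of 4 arrays (75 named genes, H and L males), 1 array lay far from the 3 others, measured as its gap to the nearest array over the range of the group. Chance gives about 1 in 20 for 4 independent samples of one population. Each group here holds 2 lines with 2 arrays each, so that rate need not apply. The ratio was 0.907 for *GILT2* in H males (H2 male replicate 1 at 11.83, the others at 12.06 to 12.09), 0.902 for *GstE5* in H (H2 male replicate 2 high), 0.84 for *alpha-Est5* in H (H2 male replicate 1 low), 0.927 for *Tm2* in H (H2 male replicate 1 high) and 0.845 for CG12934 in H (H2 male replicate 2 at 5.83, the others at 6.47 to 6.59). In L males it was 0.862 for *Mal-A2* (L2 male replicate 1 high), 0.865 for *fru* (L2 male replicate 2 low) and 0.841 for *fln* (L2 male replicate 1 low). These 8 cases fall on 4 arrays, the males of H2 and L2.

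The difference between H and L was itself different in males and females (adjusted p in limma) for CG15369 (0.00275), CG8093 (0.0414), *Tsf1* (0.0414), *Send1* (0.00167), *Phs* (0.018), *CBP* (0.015) and *Cpr64Ad* (0.00729). *Tsf1*, the gene of an iron transport protein, had 0.42 in males and -0.81 in females, CG8093 0.45 and -0.54, and *CBP* -1.44 and 0.29. *Send1*, a gene of the female sperm stores, was at the floor in males (Signals of 1 to 16.2), so that its value there (-0.32) carries little information.

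The difference was itself different in the 2 line pairs for CG6283 (0.0462), CG3301 (0.0282), *kis* (0.0227), *Phs* (0.00947), *Vajk3* (0.0124), *CBP* (0.00501), CG15080 (0.0258) and CG1894 (0.0042). CG6283 and CG3301 differed more in pair 2, and the 6 others more in pair 1.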

How the results depend on the processing

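Counts are of probe sets with an adjusted p under 0.05 in limma: 555 for H and L males, 283 of them with groups apart, 593 for H1 and L1, 270 for H2 and L2, 40 in both pairs in the same direction and 18 for the difference between the sexes. Without a filter these were 162 for H2 and L2, 22 for both pairs and 6 for the sexes. With arrays scaled to one median they were 309, 180, 318, 114 and 16 for the first 5. With the H male labels exchanged they were 373 for H1 and L1, 89, 18 and 8 for the last 4. With the model on the Signal H2 and L2 gave 446 and both pairs 73. At an adjusted p under 0.001 the first 5 were 88, 51, 111, 21 and 4. A rule of 2 steps (first a line effect or its interaction with sex at an adjusted p under 0.001, then an unadjusted p under 0.05 in males) gave 154 with groups apart. Without H2 359 probe sets were called, without L1 260 and without L2 843 (823 with groups apart), and with line as a random block 9, all apart. Leaving out 1 array at a time gave 313 to 597 for H and L males, 189 to 304 apart, 266 to 630 for H1 and L1, 75 to 280 for H2 and L2, 13 to 45 for both pairs and 3 to 28 for the sexes; the omissions of C1 female replicate 1 and L1 female replicate 1 among these were chosen after seeing the data. Omitting a male array leaves its line with 1 array, which is assumed to vary like the others.

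Samples share replicate numbers, and a check of their deviations gave correlations of 0.092 to 0.204 (median 0.149) over 6 pairs of H and L male combinations, so that not every pair passed 0.1 and the numbers were not taken to pair samples. With a replicate block the counts were 657, 317, 681, 322, 54 and 22. With lines as replicates 0 probe sets were called under the other pseudocounts, filters and scalings, with exchanged labels, with a male array left out, with the line number as a block and on the 4 line means of H and L; the remaining alternatives were not run for it. No called difference of a named gene changed sign. Of 56 named calls, 25 ended without L1, 19 without H2, 12 without H1, 10 without L2 and 50 with the random block; with scaling to one median 13 ended. The causes were not tested. Signals near the floor, as for *Cpr64Ad* in H males, limit the size of their differences, which for this gene were -1.38 with a pseudocount of 64 and -3.49 with 1.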
